A study of Mus musculus with 7 samples.

Results

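Rhox5, Rhox6 and Rhox9 are 3 genes of the Rhox cluster on the mouse X chromosome. They were chosen by name, and each has a row in all 7 count files, so the members are 3 of the 22556 genes counted and 3 of the 29 Rhox genes among them. Chromatin-associated RNA (ChrRNA-seq) was measured in undifferentiated female mouse embryonic stem cells (mESCs) of 2 lines derived from a hybrid of 129/Sv, called Dom, and CAST/EiJ, called Cast. In iXist-ChrX-Dom (n = 4 libraries) a TetOn promoter took the place of the Xist promoter on the Dom X chromosome, and in iXist-ChrX-Cast (n = 3) on the Cast X chromosome. All 7 libraries came from cells given doxycycline at 1 µg/mL for 10 days. Xi stands for the chromosome with inducible Xist and Xa for its partner, so Xa is Cast in iXist-ChrX-Dom and Dom in iXist-ChrX-Cast. The labels carry 1 clone name for each line, and nothing in them says that the libraries of a line came from separate cultures. The study calls those of iXist-ChrX-Dom 4 replicate experiments and those of iXist-ChrX-Cast 3 replicates. The p-values measure the spread between these libraries, which may in part be technical, and not a spread between clones. No uninduced sample was analysed here, so none of the values measures an effect of Xist induction. For replicates 3 and 4 of iXist-ChrX-Dom a description field reads day 1 where title and treatment read 10 days, and the latter was followed. For replicates 1 and 2 of iXist-ChrX-Cast the clone is spelled otherwise in the file names than in the labels.

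Rhox genes encode homeobox transcription factors and are named for their expression in reproductive tissues, the testis, ovary and placenta. Rhox5, also known as Pem, is the founding member and is best known from Sertoli cells and the placenta. Rhox6 and Rhox9, also known as Psx1 and Psx2, are closely related placental homeobox genes. In the embryo proper the cluster is known to be held silent by DNA methylation. Xist RNA coats the chromosome it is transcribed from and silences most of its genes, so a count of fragments from each parental copy shows which X chromosome a gene was transcribed from.

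On mm10, Rhox5 was counted on X from 37754607 to 37808878 (plus strand), Rhox6 from 37827054 to 37829857 (plus strand) and Rhox9 from 37899096 to 37901770 (minus strand), all about 65.6 Mb centromeric of Xist. Fragments had been counted over whole transcripts with their introns. The counted span of Rhox5 is 54.272 kb, of which 1.39% is exonic in GENCODE M21, so nearly all of its span is intronic. Rhox6 spans 2.804 kb with 30.9% exonic, and Rhox9 spans 2.675 kb with 93.0% exonic. No other GENCODE gene overlaps any of the 3.

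Rhox6 and Rhox9 are near copies, and their sequence is shown because it bears on how their fragments can be told apart. Their coding sequences hold 684 bases each and are 90.6% identical. The stretch below holds the longest identical run, 161 bases, with 40 coding bases on each side. It is coding bases 127 to 367 of each gene and lies within a single exon, at 37827410 to 37827650 on the plus strand for Rhox6 and 37901127 to 37901367 on the minus strand for Rhox9 (GENCODE transcripts, GRCm38, the assembly of mm10). Letters in capitals differ between the genes.
Rhox6: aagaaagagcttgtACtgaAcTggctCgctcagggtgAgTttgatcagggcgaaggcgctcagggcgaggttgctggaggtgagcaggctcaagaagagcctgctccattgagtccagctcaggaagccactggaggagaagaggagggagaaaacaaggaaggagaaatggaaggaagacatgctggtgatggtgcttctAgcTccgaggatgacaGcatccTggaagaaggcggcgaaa
Rhox9: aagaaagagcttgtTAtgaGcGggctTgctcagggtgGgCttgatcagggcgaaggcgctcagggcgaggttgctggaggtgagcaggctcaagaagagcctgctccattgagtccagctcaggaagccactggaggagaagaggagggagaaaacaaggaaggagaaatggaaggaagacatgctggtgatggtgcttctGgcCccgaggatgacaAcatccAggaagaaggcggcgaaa
Between them 11 of 241 bases differ. The aligner kept unique alignments only, so a read pair that lay wholly in the identical run was counted for neither gene. How far the counts of Rhox6 and Rhox9 are lowered or exchanged by this was not tested, and both are given as uncertain in that respect.

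The libraries held 14877384 to 24309806 counted fragments. Xist was counted in each of them at 5253 to 7130 CPM (counts scaled to a common library size), and Xi gave 99.9% of its allelic fragments in each iXist-ChrX-Dom library and 94.0% to 94.7% in the iXist-ChrX-Cast libraries. The mESC markers, 10 genes, had a summed level of 1499 to 1831 CPM in iXist-ChrX-Dom libraries and 1677 to 1849 in those of iXist-ChrX-Cast. The 10 trophoblast markers, of which 6 had enough counts to be tested, summed to 27.5 to 36.7 CPM and 25.3 to 38.9 CPM. The 9 fibroblast markers mark the feeder cells, which the study let attach first in a pre-plating step. Whether any remained was not tested. These markers summed to 25.7 to 39.4 and 27.4 to 36.5 CPM, and 11 primitive endoderm markers to 458 to 746 and 499.5 to 712 CPM. Most of the latter sum was Lama1 (mean 220 and 246 CPM), Lamb1 (167 and 167) and Col4a1 (99.3 and 79.1). Gata6 (3.96 and 5.27), Gata4 (4.19 and 4.89) and Sox7 (0.644 and 0.823) were low. Most of the trophoblast sum was Tfap2c (21.1 and 21.4). Of the genes tested in these 4 lists, edgeR called 0 between the lines, with an unadjusted p under 0.05 for 3 mESC markers and 1 trophoblast marker. Of all 15186 genes tested, 8.24% had such a p with a higher level in iXist-ChrX-Dom, and the lower side was not counted. The lowest adjusted p of mESC markers (edgeR) were 0.0551 for Tfcp2l1 (log2 fold change -0.50, SE 0.12) and 0.0956 for Klf4 (-0.52, SE 0.15). Zfp42 had 0.37 (SE 0.14, adjusted p = 0.208). DESeq2 called 2 mESC markers as lower in iXist-ChrX-Dom, and 1098 of all genes, 492 of them higher. No marker of the 4 lists was at 0 in all libraries.

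All 3 members were detected in every library, at low levels, and their mean total level was higher in iXist-ChrX-Dom. Rhox5 was counted 332, 177, 209 and 225 times in replicates 1 to 4 of iXist-ChrX-Dom and 52, 116 and 127 times in replicates 1 to 3 of iXist-ChrX-Cast. Scaled to library size these are 14.6, 7.19, 11.1 and 11.5 CPM against 3.66, 5.91 and 6.36 CPM. Every iXist-ChrX-Dom library lay above every iXist-ChrX-Cast library, although the lowest of the former (7.19 CPM) was near the highest of the latter (6.36 CPM). The means were 11.1 ± 3.02 CPM (SD, n = 4) and 5.31 ± 1.45 CPM (SD, n = 3), and the edgeR fit gave a 2.07-fold difference.

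Rhox6 was counted 107, 79, 88 and 59 times in iXist-ChrX-Dom and 16, 34 and 33 times in iXist-ChrX-Cast, or 4.69, 3.21, 4.69 and 3.01 CPM against 1.13, 1.73 and 1.65 CPM. The groups again did not overlap, and the gap between them was wider than for Rhox5. Mean levels were 3.90 ± 0.917 CPM (SD, n = 4) and 1.50 ± 0.330 CPM (SD, n = 3), and the edgeR fit put the lines 2.56-fold apart.

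Rhox9 had the fewest fragments, 28, 43, 47 and 48 in iXist-ChrX-Dom and 13, 32 and 23 in iXist-ChrX-Cast. Its levels of 1.23, 1.75, 2.51 and 2.45 CPM overlapped the 0.914, 1.63 and 1.15 CPM of the other line, because iXist-ChrX-Dom replicate 1 lay below iXist-ChrX-Cast replicate 2. The means were 1.98 ± 0.610 CPM (SD, n = 4) and 1.23 ± 0.365 CPM (SD, n = 3).

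**Figure D1:**
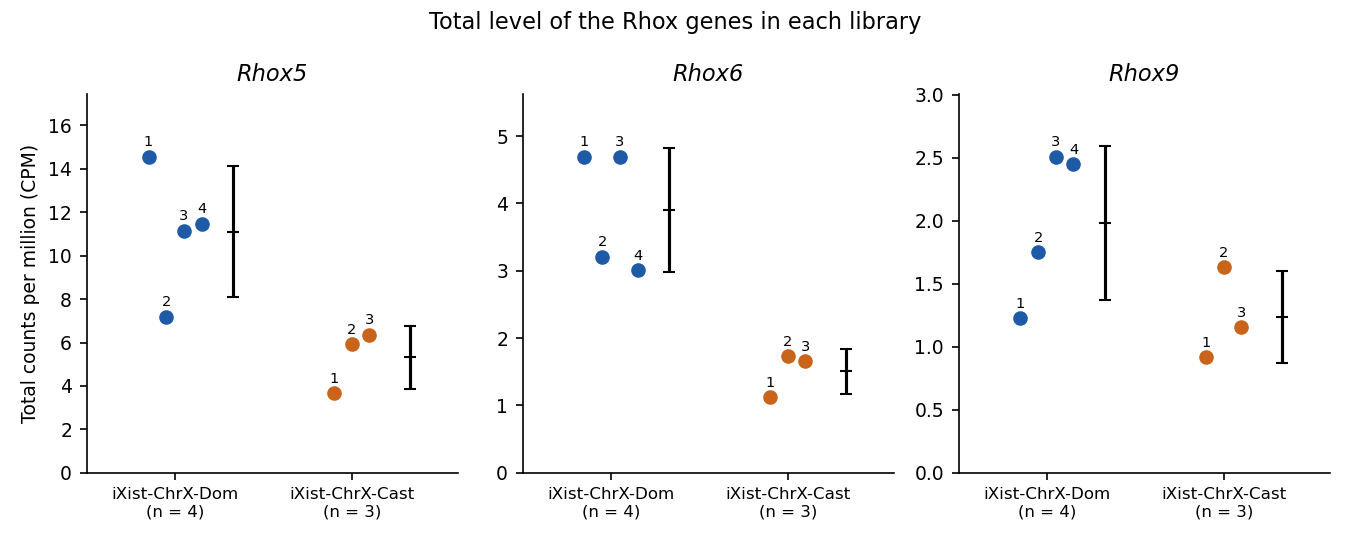
Total level in CPM (vertical axis, from 0, with its own scale for each gene) of Rhox5, Rhox6 and Rhox9 in each library, labelled by replicate number, with the mean ± SD of each line beside the points. The 2 lines do not overlap for Rhox5 or Rhox6, and they overlap for Rhox9, where iXist-ChrX-Dom replicate 1 (1.23 CPM) lies below iXist-ChrX-Cast replicate 2 (1.63 CPM).

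The lines were compared with edgeR's quasi-likelihood test over all genes (Benjamini-Hochberg adjustment, threshold 0.05), which called 2.92% of 15186 genes, 1.2% as higher in iXist-ChrX-Dom. Of the members, 1 of 3 was called, Rhox6, with a log2 fold change of 1.35 (SE 0.27, adjusted p = 0.0311). Rhox5 had a log2 fold change of 1.05 (SE 0.26) and did not pass with an adjusted p = 0.0629. Rhox9 had 0.65 (SE 0.32, adjusted p = 0.331). An unadjusted p under 0.05 with a higher level in iXist-ChrX-Dom, held by Rhox5 and Rhox6, was held by 8.24% of the genes tested. Non-overlapping levels that were higher in iXist-ChrX-Dom, as for Rhox5 and Rhox6, were found for 7.95% of the genes tested.

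Rhox6 kept its call in the other fits to all 7 libraries, while Rhox5 gained one in some of them. With a block for the replicate number, the adjusted p was 0.00042 for Rhox6, 0.00223 for Rhox5 (log2 fold change 0.99) and 0.292 for Rhox9, and 5.37% of genes were called as higher in iXist-ChrX-Dom. With the sample set, replicates 1 and 2 against 3 and 4, as a covariate, the adjusted p was 0.0017, 0.00457 and 0.202, and 7.51% were called so.

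Single libraries bore on both calls. Rhox6 lost its call without iXist-ChrX-Dom replicate 1 (adjusted p = 0.0744), 2 (0.0562) or 3 (0.0955), or without iXist-ChrX-Cast replicate 1 (0.0992) or 2 (0.152). Its log2 fold change was 1.20 to 1.46 over all 7 omissions. Calls fell for all genes there. In the same order, 54 of 15011, 45 of 15029, 21 of 15095, 24 of 15399 and 3 of 15392 were called as higher in iXist-ChrX-Dom. With all libraries 182 of 15186 were. Rhox5 gained a call without iXist-ChrX-Cast replicate 3 (adjusted p = 0.0375), where 523 of 15384 genes were called as higher in iXist-ChrX-Dom. In replicates 1 and 2 alone, which leaves out the libraries with the day 1 descriptions, Rhox5 had a log2 fold change of 1.16 (adjusted p = 0.0306). There 794 of 15293 genes were called as higher in iXist-ChrX-Dom, and Rhox9 had 0.19 (adjusted p = 0.799).

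Levels were compared between genes only per kb of the counted length. On that scale Rhox6 was the highest of the 3 in both lines, at 1.39 ± 0.327 and 0.536 ± 0.118 CPM per kb (SD), iXist-ChrX-Dom given first. Rhox9 followed at 0.741 ± 0.228 and 0.461 ± 0.136 CPM per kb, and Rhox5 was lowest at 0.204 ± 0.0557 and 0.0979 ± 0.0267 CPM per kb. In iXist-ChrX-Cast the Rhox6 values of 0.401, 0.618 and 0.590 CPM per kb in replicates 1 to 3 overlapped the Rhox9 values of 0.342, 0.610 and 0.431. Within each of these libraries Rhox6 was the higher, though by little in replicate 2. In iXist-ChrX-Dom the Rhox6 libraries (1.07 to 1.67) lay above the Rhox9 libraries (0.459 to 0.937), and Rhox5 lay below both in each library of either line. The order takes the whole span as the length, and the exonic part of that span differs, at 1.39% for Rhox5, 30.9% for Rhox6 and 93.0% for Rhox9. Among the 542 X-linked genes tested, ordered from the highest level per kb, Rhox6 was number 193 in iXist-ChrX-Dom but 312 in iXist-ChrX-Cast, Rhox9 number 271 and 328 in the same order, and Rhox5 number 388 and 446.

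Fragments that carry a strain polymorphism showed which copy the 3 genes were transcribed from. In both lines nearly all came from Xa, the chromosome without inducible Xist, and so from the Cast copy in iXist-ChrX-Dom and from the Dom copy in iXist-ChrX-Cast. Over the 3 genes, Xi gave 9 of 391 allelic fragments in iXist-ChrX-Dom libraries and 4 of 107 in those of iXist-ChrX-Cast. None of the 3 is among the 246 and 399 genes of the deposited ratio tables of the lines, so these shares were computed from the Cast and Dom counts. The study filtered its ratio tables on uninduced cells too, which were not analysed here, so whether a member was already transcribed mainly from Xa before induction cannot be told apart from silencing in these data.

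For Rhox5, Xi gave 0 of 45, 1 of 41, 0 of 52 and 2 of 36 allelic fragments in replicates 1 to 4 of iXist-ChrX-Dom, and 1 of 8, 0 of 19 and 0 of 18 in replicates 1 to 3 of iXist-ChrX-Cast. No library gave more than 2 Xi fragments. A count of 0 allows an Xi share of up to 0.0577 to 0.0667 at the depth of the iXist-ChrX-Dom libraries with none and 0.158 to 0.167 at that of the iXist-ChrX-Cast libraries with none. Summed over libraries, 3 of 174 fragments (0.0172, exact Clopper-Pearson 95% interval 0.00357 to 0.0496) and 1 of 45 (0.0222, interval 0.000562 to 0.118) came from Xi. These limits and intervals cover counting error only. Allelic fragments were 18.5% and 15.3% of all Rhox5 fragments in the lines.

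For Rhox6 the allelic part was larger, 52.9% and 50.6% of its fragments. Xi gave 0 of 53, 1 of 45, 1 of 48 and 0 of 30 fragments in iXist-ChrX-Dom, and 1 of 10, 1 of 15 and 0 of 17 in iXist-ChrX-Cast. In neither line did a library hold more than 1 Xi fragment. The sums were 2 of 176 (0.0114, interval 0.00138 to 0.0404) and 2 of 42 (0.0476, interval 0.00582 to 0.162).

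For Rhox9, Xi gave 0 of 11, 0 of 9, 2 of 10 and 2 of 11 fragments in iXist-ChrX-Dom, and 1 of 5, 0 of 9 and 0 of 6 in iXist-ChrX-Cast. All 4 Xi fragments of iXist-ChrX-Dom came from replicates 3 and 4, the libraries whose descriptions read day 1. Their share of 4 of 41 (0.0976) had an interval of 0.0272 to 0.231, and that of iXist-ChrX-Cast, 1 of 20, ran from 0.00127 to 0.249.

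**Figure D2:**
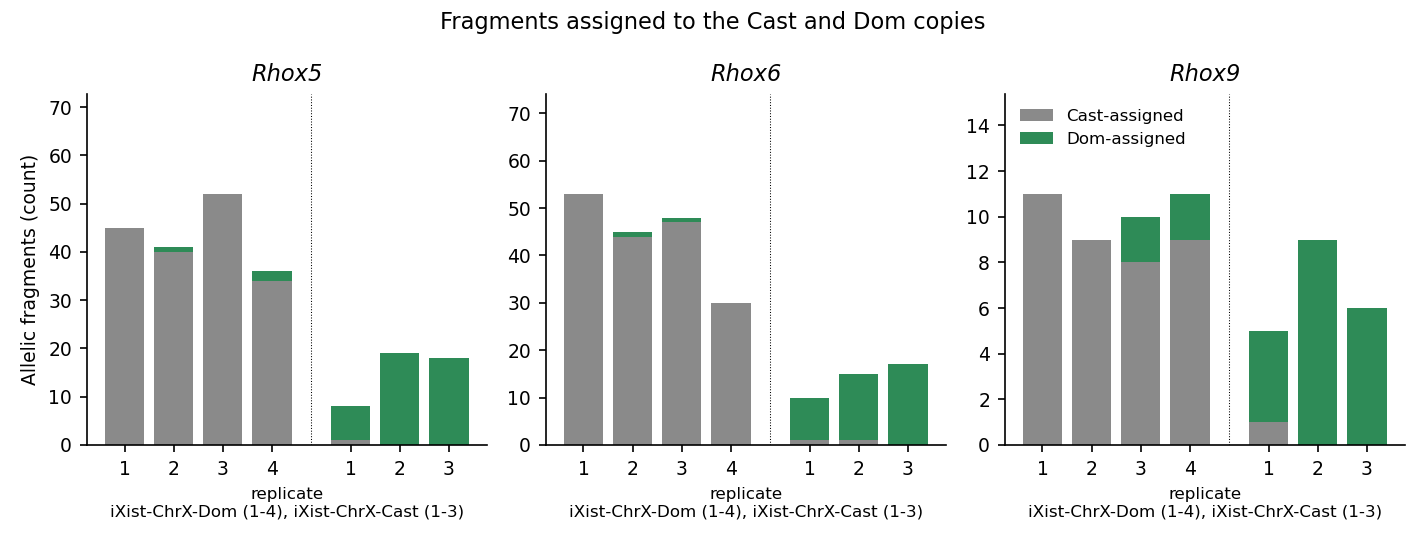
Allelic fragments of Rhox5, Rhox6 and Rhox9 in each library (vertical axis, counts from 0, own scale for each gene), with fragments assigned to the Cast copy in grey and to the Dom copy in green. The bars of iXist-ChrX-Dom, where Xa is Cast, are nearly all grey, and those of iXist-ChrX-Cast, where Xa is Dom, nearly all green.

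The Xi share, Xi over the sum of Xi and Xa, was tested with limma on its log-odds, log2((share + 0.01)/(1 − share + 0.01)), over the 431 X-linked genes with at least 10 allelic fragments in over 80% of libraries. Most of them lay below an equal share of 0.5, 93.5% with an adjusted p under 0.05 in iXist-ChrX-Dom and 95.8% in the other line. Rhox5 and Rhox6 were among them in both lines, which does not set them apart. Of the 264 genes that lie centromeric of Xist, 92.4% and 95.5% were called so. Rhox5 had a mean share of 0.0200 ± 0.0264 (SD, n = 4) and 0.0417 ± 0.0722 (SD, n = 3), with adjusted p = 0.000337 and 0.000907 (limma). Rhox6 had 0.0108 ± 0.0124 and 0.0556 ± 0.0509, with adjusted p = 7.14e-05 and 0.000762. Rhox9, at 0.0955 ± 0.110 and 0.0667 ± 0.115, had too few allelic fragments for this fit. With a minimum of 5 fragments, chosen after the data were seen, it too lay below 0.5 (limma, adjusted p = 0.0107 and 0.00996).

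Between the lines, 55.2% of the 431 genes differed in Xi share, and 35.6% of the 264 centromeric genes, a count given because the X of iXist-ChrX-Dom is homozygous Cast on the telomeric side. No difference was called for the members. Rhox5 differed by -0.16 on the log-odds scale (SE 1.20, adjusted p = 0.924), and this sign turned under other settings. Rhox6 differed by -1.37 (SE 0.96, adjusted p = 0.267), and by -2.48 with a call (adjusted p = 0.0252) without iXist-ChrX-Cast replicate 3. At standard errors of this size a several-fold difference in the odds could have gone undetected.

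Against the other X-linked genes the Xi shares of Rhox5 and Rhox6 were low. The median mean share of the 264 centromeric genes was 0.147 for iXist-ChrX-Dom, with 0.131 for iXist-ChrX-Cast. In iXist-ChrX-Dom 6 of the 264 had a lower mean share than Rhox5 and 2 a lower one than Rhox6, and in iXist-ChrX-Cast 32 and 52 did. The order is a description, since shares from so few fragments move in large steps.

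The level of the Xa copy alone was taken as its allelic fragments scaled like the CPM. It was 1.63 to 2.77 CPM for Rhox5 in iXist-ChrX-Dom libraries against 0.492 to 0.968 CPM in those of iXist-ChrX-Cast, and for Rhox6 1.53 to 2.51 and 0.633 to 0.852 CPM. The lines did not overlap in either, which held, with the higher level in iXist-ChrX-Dom, for 12.1% of the 264 centromeric genes. For Rhox9 it was 0.366 to 0.482 and 0.281 to 0.459 CPM, which overlap. The Xa copy is Cast in one line and Dom in the other, so a difference between the strains' copies and a difference between the clones cannot be told apart. The median Cast share of autosomal genes was 0.463 to 0.469 in all libraries, and the part of this allele bias in the Xa levels was not tested.

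The remaining 26 Rhox genes had few counts. Of them 10 had no count in any library, 13 had at most 9 in any, and 3 had 10 or more, namely Rhox3g, Rhox2e and Rhox13. The members held 1888 of the 2498 Rhox counts, 75.6%. Of those 3, edgeR and DESeq2 called 0 in total counts, and 1, Rhox13, had an unadjusted p under 0.05 by edgeR. Rhox13 lay at 0.281 ± 0.116 CPM (SD, n = 4) in iXist-ChrX-Dom and 0.616 ± 0.0578 CPM (SD, n = 3) in iXist-ChrX-Cast, a log2 fold change of -1.07 (SE 0.39, adjusted p = 0.190) and so of the opposite sign to the members. Rhox3g had 0.32 (SE 0.33, adjusted p = 0.688) and Rhox2e 1.30 (SE 0.65, adjusted p = 0.337).

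In 2 of these 3 genes most allelic fragments were assigned to the same strain in both lines. Of the allelic fragments of Rhox3g, 57 of 67 in iXist-ChrX-Dom libraries and 31 of 40 in those of iXist-ChrX-Cast were assigned to Dom, which is Xi in the first line and Xa in the second. Its mean Xi share was 0.846 ± 0.106 (SD, n = 4) and 0.209 ± 0.0581 (SD, n = 3), a log-odds difference of 4.55 (SE 0.68, limma, adjusted p = 0.00135). Rhox2e was assigned to Cast alone in both lines, 89 of 89 and 23 of 23 fragments, and was too low for the fit. With the minimum of 5 fragments its log-odds differed by -13.3 (limma, adjusted p = 1.13e-09), a size set by the offset because every share was 0 or 1. Among the 264 centromeric genes tested, 5.30% had a mean Xi share above 0.5 in one line and below it in the other. Rhox2 and Rhox3 genes are repeated copies within the cluster, so these assignments may include fragments of a sister copy, which was not tested. The study left out genes that were strongly monoallelic in uninduced cells, as likely artefacts of a mis-annotated polymorphism. Whether that applies to these assignments was not tested.

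**Figure D3:**
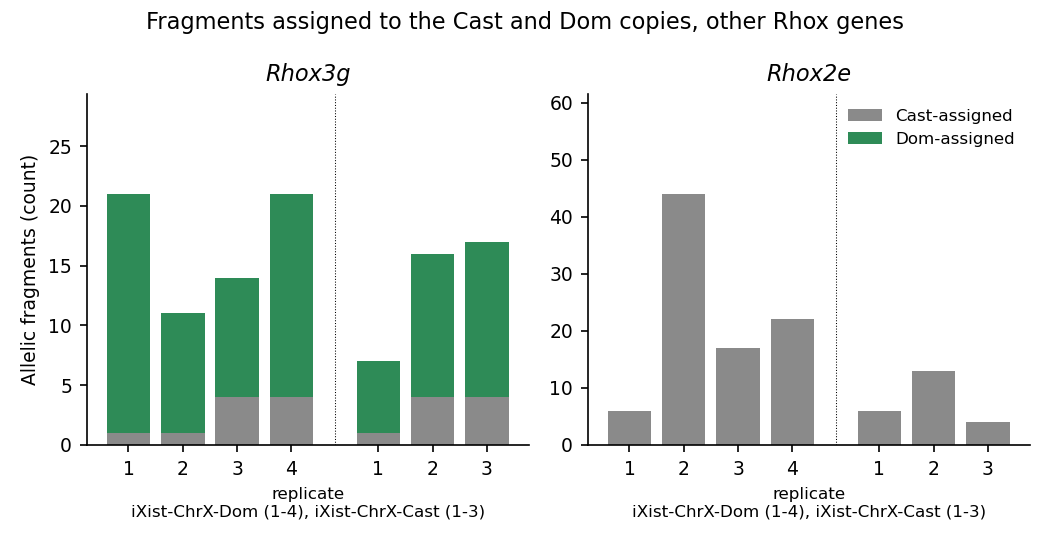
Allelic fragments of Rhox3g and Rhox2e in each library (vertical axis, counts from 0), Cast-assigned in grey and Dom-assigned in green. Unlike the members, Rhox3g is mostly Dom-assigned and Rhox2e wholly Cast-assigned in both lines.

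In total counts most genes next to the cluster lay below 0, unlike the members, but several were within their SE of 0. The median log2 fold change of all genes tested was -0.0028. Of the 10 nearest genes tested, 5 on each side, edgeR and DESeq2 called 0, edgeR gave 3 an unadjusted p under 0.05, and 1 had a log2 fold change above 0, with a range of -1.02 to 0.02. Of all genes tested, 8.24% had such an unadjusted p with a higher level in iXist-ChrX-Dom. The share with a lower level was not counted. Of the 6 with enough allelic fragments, the mean Xi share ran from 0.0395 to 0.298 in iXist-ChrX-Dom and from 0.126 to 0.308 in iXist-ChrX-Cast, against 0.0108 to 0.0200 and 0.0417 to 0.0556 for Rhox5 and Rhox6. Of these 6, Mcts1 differed in Xi share between the lines (limma, adjusted p = 0.0218). The difference between the members and these neighbours was not tested.

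**Figure D4:**
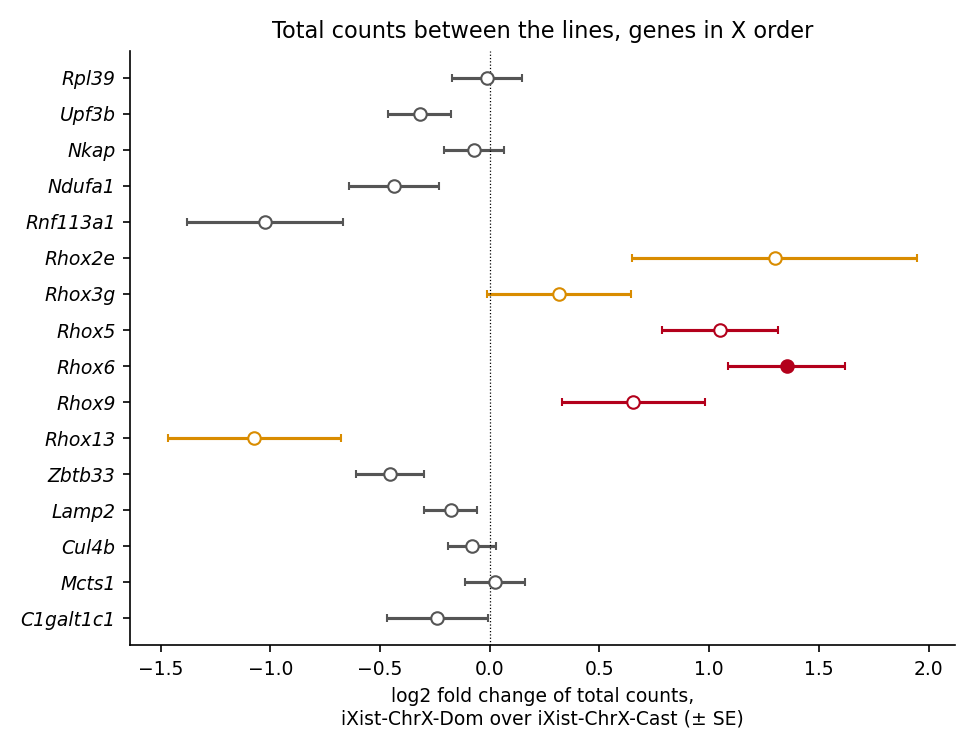
Log2 fold change of total counts, iXist-ChrX-Dom over iXist-ChrX-Cast (horizontal axis, ± SE), for the Rhox genes tested and the 5 nearest genes on each side, listed in their order on X. The members (red) lie at 0.65 to 1.35, with Rhox6 the one filled point (adjusted p under 0.05), the other Rhox genes (orange) lie on both sides of 0, and the neighbours (grey) reach from -1.02 to 0.02.

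**Figure D5:**
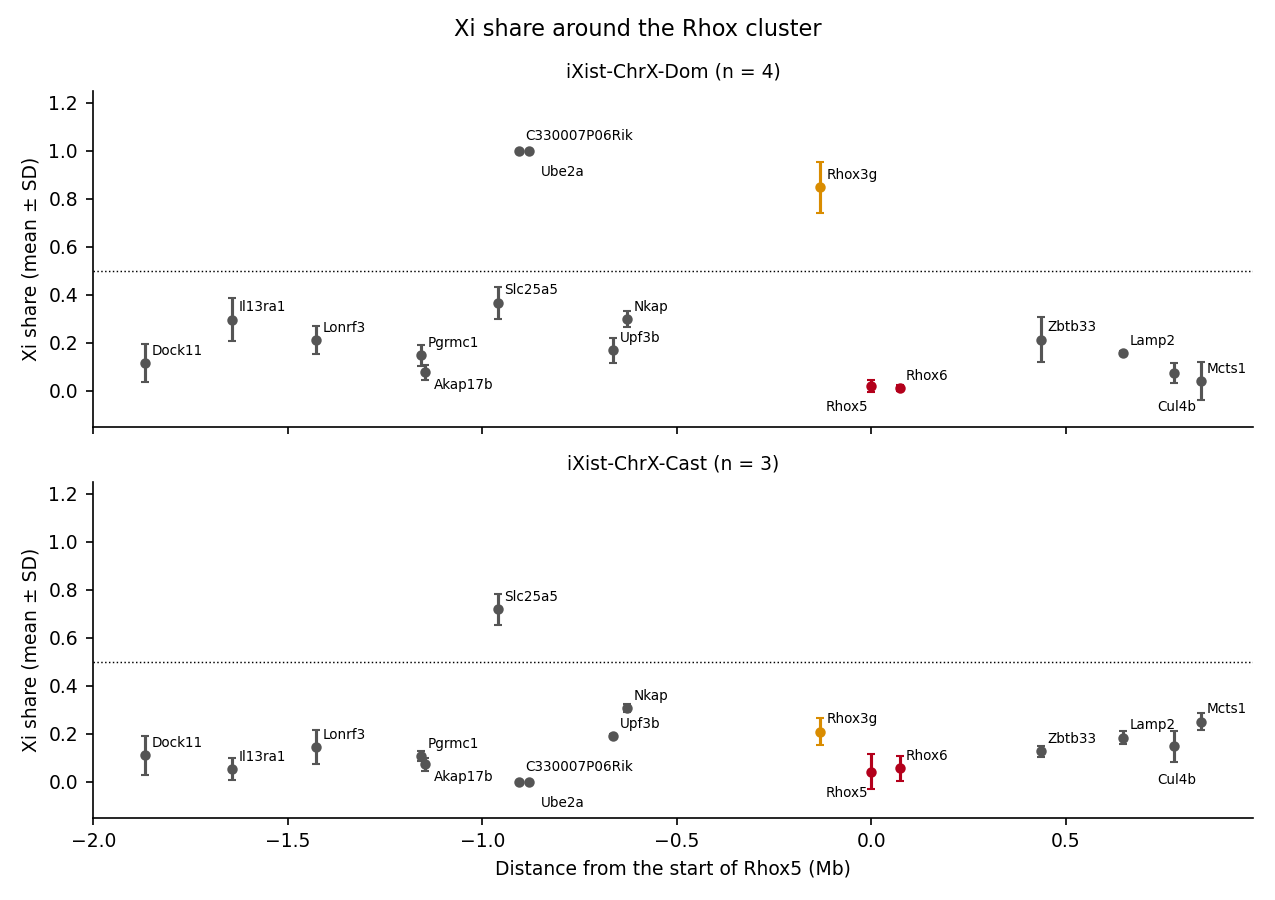
Mean Xi share ± SD against the distance from the start of Rhox5 in Mb, in iXist-ChrX-Dom (n = 4) and iXist-ChrX-Cast (n = 3), for the genes with enough allelic fragments, with the dotted line at an equal share of 0.5. Rhox5 and Rhox6 (red) lie near 0 in both lines. Rhox3g (orange) changes side, as do Slc25a5, Ube2a and C330007P06Rik. Allelic fragments of Ube2a and C330007P06Rik were all or nearly all assigned to Dom in both lines. Whether a mis-annotated polymorphism had a part in this was not tested.

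Since the cluster is known as a target of DNA methylation, the genes that write, keep and remove methylation were examined beside it. Of 12 listed genes, 11 had enough counts, and edgeR called 0 of them, also at an unadjusted p under 0.05, as did DESeq2, with a median log2 fold change of -0.04 against -0.0028 over all genes tested. Tet1, a methylcytosine oxidase, had -0.10 (SE 0.13), Hells, a chromatin remodeller that methylation requires, -0.08 (SE 0.15), and Tet2 -0.04 (SE 0.14). No methylation was measured here.

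Germline genes whose promoters are known to be kept silent by methylation were called lower in iXist-ChrX-Dom or not at all. Of 19 tested, edgeR called 0 as higher in iXist-ChrX-Dom and 3 as lower, as did DESeq2, beside 1.72% of all genes tested that edgeR called lower. DESeq2 called more genes, 1098 of 15186, with 492 of them higher in iXist-ChrX-Dom. Of all genes tested, 8.24% had an unadjusted p under 0.05 with a higher level in iXist-ChrX-Dom. The share with a lower level was not counted. The median log2 fold change was -0.34, and 9 of the 19 had an unadjusted p under 0.05, among them Asz1 at 1.26 (SE 0.35, adjusted p = 0.0843) and Tex19.1 at 0.56 (SE 0.23, adjusted p = 0.244) on the other side of 0. The 3 were Mael, a piRNA pathway gene, at -1.16 (SE 0.24, adjusted p = 0.0377), the X-linked Taf7l, a TFIID subunit of the testis, at -1.45 (SE 0.24, adjusted p = 0.0175), and Syce1, of the synaptonemal complex, at -0.62 (SE 0.14, adjusted p = 0.0472), all by edgeR. Of 7 primordial germ cell markers, 1 was lower, the receptor gene Kit, at -0.52 (SE 0.09, adjusted p = 0.0216), and 0 higher.

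Across the 7 libraries the levels of Rhox5 and Rhox6 had a Pearson correlation of 0.922, Rhox5 and Rhox9 of 0.581, and Rhox6 and Rhox9 of 0.622. Many other genes were closer. Among all genes tested, Rhox6 ranked 58 in likeness to Rhox5. Rhox9 ranked 2242 in likeness to Rhox5 and 1837 in likeness to Rhox6. The genes most like each member by this measure were Nbr1 (0.999), Mirlet7bhg (0.974) and Atp4b (0.972) for Rhox5, Champ1 (0.996), Cyb5d1 (0.992) and Trpm6 (0.987) for Rhox6, and Rlbp1 (0.98), Hars2 (0.978) and Dcaf12 (0.967) for Rhox9. With 7 libraries in 2 lines and 15186 genes searched, values this high are a description of these libraries, and the points share their line.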

How the data were processed

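ChrRNA-seq libraries were grouped by the line in their labels. Ribosomal RNA reads had been discarded by the authors after bowtie2 2.3.2 mapping. They aligned the rest uniquely to mm10 with strain polymorphisms masked (STAR 2.4.2a), split fragments by parental genome with SNPsplit and counted them by strand with featureCounts 1.5.2. The deposited values are counts per gene, in total and per parental genome. The deposited ratio tables hold the Xi fraction of allelic fragments, and all 2181 values were checked to equal that of the counts. No Rhox gene is in them.

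Total counts were tested with edgeR 4.0.16 (R 4.3.3; filterByExpr, TMM) and Xi shares with limma 3.58.1, two-sided, with Benjamini-Hochberg adjustment over all genes tested. Both were tested on simulated data. DESeq2 1.42.0, Python 3.11.15, scipy 1.17.1 and Biopython 1.88 were also used. A pairwise alignment compared the coding sequences of Rhox6 and Rhox9. CPM uses TMM-scaled library sizes, and Xist is given per unscaled total. Standard errors of edgeR were taken from the F statistic.

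Replicate numbers were used as a block because the deviations of same-numbered libraries correlated at 0.329, 0.275 and 0.466. Libraries 1 and 2 correlated as well across numbers (0.384 and 0.323), so the numbers may mark a shared set rather than pairs. iXist-ChrX-Dom replicate 4 has no partner and does not inform the blocked difference. The sample set parts replicates 1 and 2 from 3 and 4 by file naming alone, and the labels state no batch.

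Members and gene lists were chosen with earlier results of these data known. Beside the members, the text names other Rhox genes with at least 10 counts in a library, the 5 nearest tested genes on each side, list genes that were called or, where none was, the 3 most abundant, and the 3 genes most like each member. Marker lists are given by their sums, with single markers of 3 lists named after their values were seen. Ube2a, C330007P06Rik, Slc25a5, Asz1 and Tex19.1 were named after their values were seen. Alternatives were DESeq2, other scalings, no count filter, other log-odds offsets and fragment minimums, a correction for allele bias, the block, the sample set as covariate and leaving out each library.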

Additional observations from a re-analysis of the deposited data

Results flagged for a closer look

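The Xi share of Rhox3g differed between the lines by a test of the difference itself, 4.55 on the log-odds scale (limma, SE 0.68, adjusted p = 0.00135), with Xi above 0.5 in 4 of 4 iXist-ChrX-Dom libraries and below it in 3 of 3 iXist-ChrX-Cast libraries. Its Xi share below 0.5 in iXist-ChrX-Cast was no longer called without replicate 1 of that line (adjusted p = 0.0572). The Xi share of Rhox2e was 0 in all 4 iXist-ChrX-Dom libraries and 1.0 in all 3 iXist-ChrX-Cast libraries, on opposite sides of 0.5 in every library. It had too few fragments for the main minimum of 10, and with a minimum of 5, chosen after the data were seen, the log-odds differed by -13.3 (limma, adjusted p = 1.13e-09), a size that the offset sets. In 10 sets of 4 values, the levels and Xi shares of the members and the other detected Rhox genes in iXist-ChrX-Dom, 0 libraries stood apart from the rest by Dixon's test.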

How the results depend on the processing

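Rhox6 and Rhox9 kept a higher total in iXist-ChrX-Dom under all 14 alternatives, at log2 fold changes of 1.20 to 1.46 and 0.19 to 0.91, and Rhox5 did at 0.86 to 1.21. Rhox9 was called under none. Leaving out 1 library gave 0.86 to 1.21 for Rhox5 and 1.20 to 1.46 for Rhox6. Rhox5 was called with DESeq2 (1.06), the replicate block (0.99), the sample set as covariate (1.02) and replicates 1 and 2 only (1.16). It was also called without iXist-ChrX-Cast replicate 3 (1.19). The number of genes called, 443, became 1098 with DESeq2, 1794 with the replicate block, 2398 with the sample set, 1685 in replicates 1 and 2, and 18 to 1206 without 1 library, the lowest without iXist-ChrX-Cast replicate 2 and the highest without replicate 3. Called higher in iXist-ChrX-Dom were 182 of 443, and 143 of 463 with scaling factors from autosomes other than 1, 5, 8, 12 and 14. The Xi share of Rhox5 and Rhox6 lay below 0.5 with a call in both lines under all 12 alternatives in which they could be tested. With a minimum of 20 allelic fragments neither gene had enough to be tested. In replicates 1 and 2 alone the share difference of Rhox5 could not be tested either. The Xi share difference of Rhox5 turned to 0.26 with an offset of 0.001, 0.22 without iXist-ChrX-Dom replicate 1 or 3 and 1.15 without iXist-ChrX-Cast replicate 1 (range without 1 library -0.82 to 1.15), never with a call, and that of Rhox6 ran from -2.48 to -0.67 without 1 library. With only genes centromeric of Xist, chosen after seeing the data, 94 of 264 genes differed between the lines (35.6%, against 55.2% of 431), and 244 and 252 lay below 0.5. Fewer genes were tested, and the cause of the lower share was not tested, nor were those of the other changes. The block changed no other call for a member. With CPM of the unscaled library total, mean levels of the members moved by less than 1 SD. Leaving out 1 library cannot move a mean of so few libraries by 1 SD, so those settings do not bear on this. Without 1 library the mean of Rhox5 ran from 9.94 to 12.4 CPM in iXist-ChrX-Dom and from 4.79 to 6.14 CPM in iXist-ChrX-Cast. Depth limits the Xi shares, with 5 to 11 allelic fragments of Rhox9 in a library.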
